A study of Homo sapiens with 6 samples.

Results

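The genes described here are 38 genes of glucose breakdown and of the response to low oxygen, 27 for glycolysis with its transporters and switch kinases and 11 for the hypoxia response. They were chosen by name, with earlier results of these data known, so their shares beside all genes are descriptions and not tests. Each was read from the probe set annotated to that symbol alone, taking the one with the highest mean over all arrays where a gene had several. This gave a value for 35 of the 38, among 18404 genes measured the same way: 24 of the 27 glycolysis genes and all 11 hypoxia response genes. PGAM1, SLC16A1 and SLC16A3 had no such probe set and have no value of their own here.

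The cells were MEC-1, an established B cell line from chronic lymphocytic leukemia. UGT2B17 knockdown cells received a lentivirus with shRNA targeting UGT2B17, which conjugates steroids and other small molecules to glucuronic acid, and control cells received scrambled shRNA by the same route, with 3 arrays in each group. Both groups share the cell line, the lentiviral delivery and the growth medium, which is serum-supplemented RPMI without phenol red or antibiotics. The labels name no oxygen or glucose level, no number of hairpin sequences and no selection of clones. Replicates are called independent in the study's design text, but separate cultures are not stated, so p-values measure the spread between these arrays, which may be technical. In bulk RNA of this kind, a change in some of the cells and a smaller change in every cell cannot be told apart.

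Cells take up glucose through carriers of the SLC2A family, phosphorylate it with hexokinases and split it into pyruvate, which lactate dehydrogenase turns into lactate or mitochondria oxidise. The transcription factor HIF-1, made of an oxygen-sensitive alpha subunit and ARNT, raises many of these enzymes when oxygen is short, together with genes for angiogenesis, mitophagy, collagen hydroxylation and lipid storage. Prolyl hydroxylases of the EGLN family mark the alpha subunit for destruction when oxygen is present. Proliferating leukemia B cells keep glycolysis running even with oxygen.

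UGT2B17 itself read 3.19, 3.27 and 3.17 log2 units in knockdown arrays, against 3.95, 3.69 and 3.91 in scrambled arrays, on a dim probe set. All knockdown values lay below all scrambled values, and the difference was −0.64 ± 0.08 log2 units (SE; limma, adjusted p = 0.00654). Defining markers of the labelled cell type were bright: 6 of 7 B cell markers had a value, and their probe sets lay between percentiles 88.6 and 98.8 of all deposited probe sets by mean signal. Markers of T and NK cells lay between percentiles 28.8 and 48.7, those of monocytes between 5.42 and 44.4, the erythroid marker HBB at 33.8 and epithelial and fibroblast markers between 38.1 and 60.9. None of the measured markers passed the test between the groups. Over all probe sets, scrambled replicate 3 deviated most from the mean of its replicates (root mean square 0.166 log2 units, against 0.117 to 0.142 for the other arrays). Values without it are given beside many of the differences it moved, and the plot of fold changes with and without that array shows them for every gene.

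Of the 35 measured genes, 2 rose in knockdown cells and 0 fell (limma, Benjamini-Hochberg adjusted p under 0.05 over all genes). SLC2A3, a glucose transporter, was 1.55-fold higher and HILPDA, a lipid droplet protein induced by hypoxia, 1.29-fold higher. Across all 18404 genes 3.61% were called, 1.92% higher and 1.69% lower, and 2 calls among 35 genes are too few to set these genes apart from that background. Without adjustment, 5 genes lay higher and 3 lower at p under 0.05, or 22.9% of the 35, against 18.2% of all genes (8.7% higher and 9.45% lower). In 16 of the 35 the arrays of the groups did not overlap, with knockdown above in 9 and below in 7, or 45.7%, against 24.8% of all genes (11.8% above and 13.1% below). The log2 fold change was above 0 in 22 of the 35, against 49.3% of all genes. These genes were bright, with a median percentile of 92.7 by mean signal against 58.5 for all genes tested, and the part of brightness in that share was not tested. The median log2 fold change was 0.0062 over the 24 glycolysis genes and 0.11 over the 11 hypoxia response genes, beside −0.0022 over all genes.

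**Figure D1:**
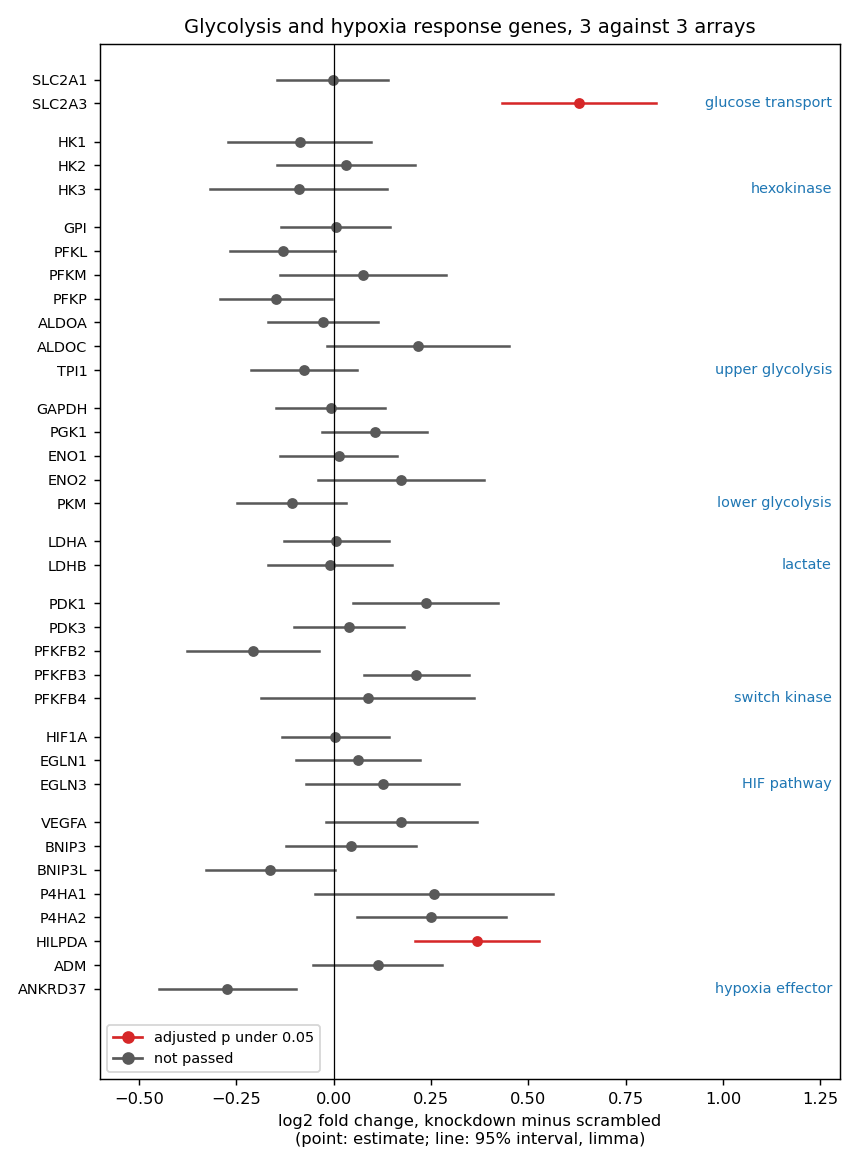
Log2 fold change, knockdown minus scrambled, of the 35 measured genes in order of their role, with 95% intervals from limma (3 arrays in each group); red marks an adjusted p under 0.05. SLC2A3 at 0.63 and HILPDA at 0.37 are the red points, and the core enzymes from GPI to LDHB sit between −0.15 and 0.22.

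The glucose transporters differed from each other. SLC2A3 (GLUT3), a high-affinity carrier on chromosome 12, read 10.19, 10.38 and 10.28 log2 units in knockdown arrays, against 9.69, 9.77 and 9.50 in scrambled arrays. Every knockdown value was above every scrambled value, with a gap wider than the range of either group. The difference was 0.63 ± 0.09 log2 units (SE; 95% interval 0.43 to 0.83; adjusted p = 0.00813). Without knockdown replicate 2 it was 0.58 with an adjusted p of 0.0504, and it passed with any other array left out. SLC2A1 (GLUT1), the basal transporter of most cells, averaged 11.22 ± 0.02 in knockdown and 11.23 ± 0.05 in scrambled arrays (SD, n = 3 each). Its difference of −0.0028 log2 units had a 95% interval of −0.14 to 0.14, so a change of the size seen for SLC2A3 lies outside it.

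SLC2A14 (GLUT14) is a near-identical relative of SLC2A3 and lies beside it on chromosome 12. It is not one of the 38 genes and was looked up after the SLC2A3 values were seen. It read 7.52, 7.55 and 7.64 log2 units in knockdown arrays, against 7.08, 7.13 and 7.06 in scrambled arrays. The groups did not overlap, and SLC2A14 rose by 0.48 ± 0.07 log2 units (SE; limma, adjusted p = 0.00739). Transcripts of such close copies can bind each other's probes, and whether each probe set reads its own gene was not tested.

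The hexokinases, which trap glucose in the cell by phosphorylating it, did not pass. HK2, the hexokinase induced in many tumours, averaged 10.23 ± 0.09 in knockdown and 10.19 ± 0.10 in scrambled arrays (SD, n = 3 each), a difference of 0.03 log2 units with a 95% interval of −0.15 to 0.21. HK1, the widespread form, differed by −0.09 and HK3, on a dim probe set at percentile 33.2, also by −0.09.

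In the upper part of the pathway none of 7 genes passed. The groups did not overlap in 4 of them, against 24.8% of all genes and 3 of the 5 measured genes of the lower part. PFKP, the platelet-type phosphofructokinase that commits sugar to glycolysis, read 10.50, 10.44 and 10.51 log2 units in knockdown arrays, against 10.58, 10.64 and 10.68 in scrambled arrays. All knockdown values lay just below all scrambled values (−0.15 ± 0.06 log2 units, SE; limma, adjusted p = 0.262). PFKL, the liver-type isozyme, lay below in the same way, at 9.80, 9.81 and 9.81 in knockdown arrays and 9.90, 9.96 and 9.95 in scrambled arrays, a difference of −0.13 with an adjusted p of 0.290. PFKM, the muscle type, differed by 0.08 with overlapping groups, and by 0.16 without scrambled replicate 3. GPI, which isomerises glucose 6-phosphate, differed by 0.0052 and ALDOA, the main aldolase, by −0.03.

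ALDOC, the brain-type aldolase and a known HIF-1 target, read 11.98, 12.01 and 11.96 log2 units in knockdown arrays, against 11.89, 11.89 and 11.52 in scrambled arrays. The low scrambled value was that of replicate 3, and the difference of 0.22 log2 units (adjusted p = 0.316) was 0.09 without that array. TPI1, which interconverts the triose phosphates, differed by −0.08 on its bright probe set and by 0.29 on a second one at percentile 54.0, so the direction for TPI1 depends on the probe set. Neither passed.

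The lower part of the pathway showed no called change either. GAPDH, often used as a constant reference, read 13.84, 13.75 and 13.82 log2 units in knockdown arrays, against 13.82, 13.79 and 13.84 in scrambled arrays. The groups overlapped fully, and the 95% interval of the difference ran from −0.15 to 0.13. PGK1, which makes ATP from 1,3-bisphosphoglycerate, averaged 12.40 in knockdown arrays and 12.29 in scrambled arrays without overlap (0.11 ± 0.06 log2 units, SE; limma, adjusted p = 0.405). PKM, pyruvate kinase, lay on the other side, at 11.99 ± 0.03 in knockdown and 12.10 ± 0.04 in scrambled arrays (SD, n = 3 each), with an adjusted p of 0.412. ENO1, the main enolase, differed by 0.01 and ENO2, the neuronal enolase, by 0.17, which was 0.07 without scrambled replicate 3. The 4 probe sets shared by PGAM1 and its retrogene copy PGAM4 had differences from −0.07 to −0.0099 log2 units, with no test of their own here.

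At the end of the pathway the 2 lactate dehydrogenase subunits were level. LDHA, which favours lactate formation, averaged 12.76 ± 0.03 in knockdown and 12.75 ± 0.01 in scrambled arrays (SD, n = 3 each). LDHB, the heart-type subunit, averaged 12.26 ± 0.02 in knockdown and 12.27 ± 0.10 in scrambled arrays. Both 95% intervals lay inside 0.2 log2 units of 0, as did those of 8 of the 24 glycolysis genes, and 23 of the 24 lay inside 0.5.

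**Figure D2:**
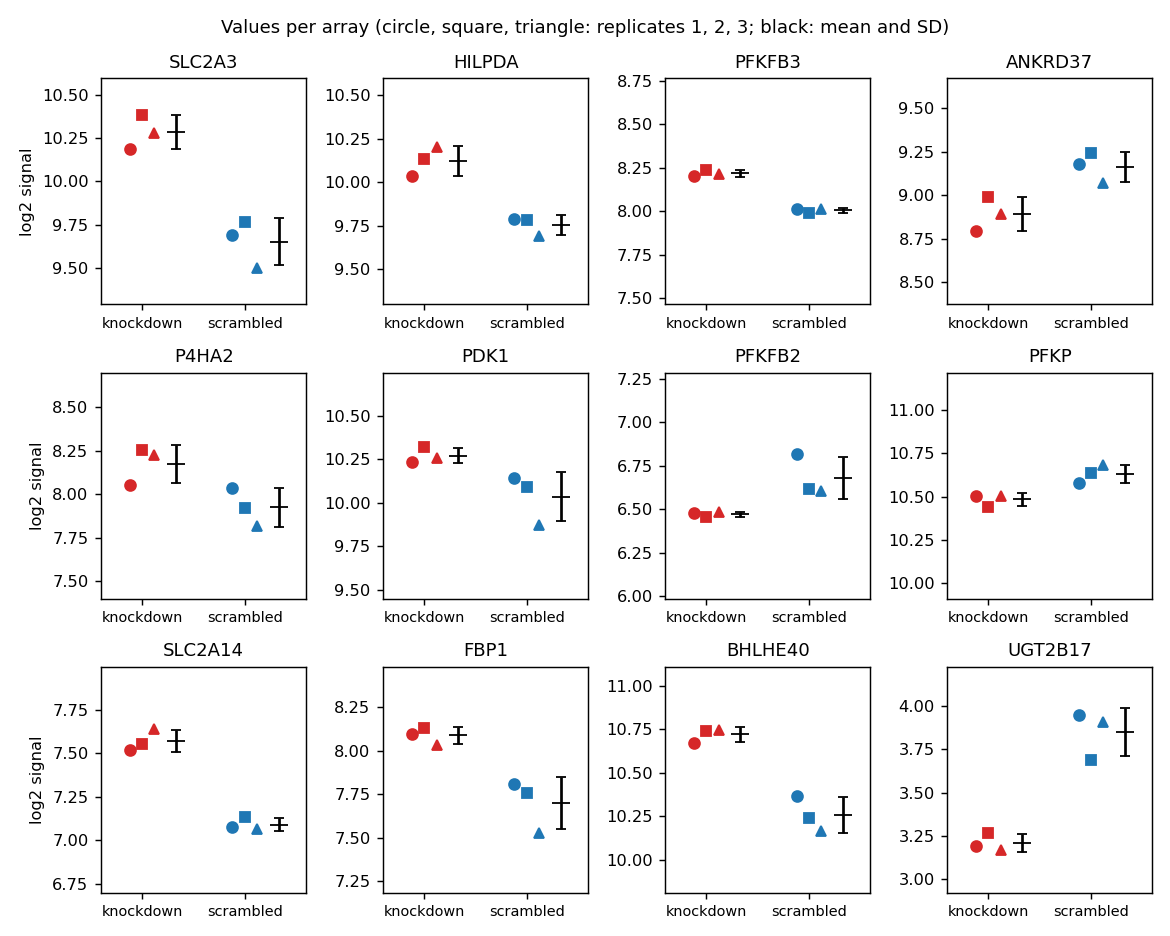
Log2 signal in each array for the 8 members with the smallest unadjusted p and for SLC2A14, FBP1, BHLHE40 and UGT2B17; knockdown arrays are red and scrambled arrays blue, black bars give mean and SD, and every panel spans 1.3 log2 units at its own level. The knockdown and scrambled values do not overlap in any of the 12 panels, against 24.8% of all genes without overlap. Apart from the target UGT2B17, panels were chosen by small p, by a call or after values were seen, so this is no separate result.

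Among the kinases that switch the pathway, the signs were mixed and none of 5 genes passed. PFKFB3 makes fructose 2,6-bisphosphate, the strongest activator of phosphofructokinase. It read 8.20, 8.24 and 8.22 log2 units in knockdown arrays, against 8.01, 7.99 and 8.01 in scrambled arrays. The replicates were tight and the groups well apart, but the size was 0.21 ± 0.06 log2 units (SE; 1.16-fold) and the adjusted p 0.0946. PFKFB2, a related bifunctional enzyme, read 6.48, 6.46 and 6.48 in knockdown arrays, against 6.82, 6.62 and 6.61 in scrambled arrays. Here all knockdown values were below all scrambled values, a difference of −0.21 ± 0.07 log2 units (SE; limma, adjusted p = 0.186). Without scrambled replicate 3 the PFKFB2 difference was −0.24.

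PDK1 phosphorylates pyruvate dehydrogenase and so keeps pyruvate out of mitochondria, and it is a classical HIF-1 target. It read 10.24, 10.32 and 10.26 log2 units in knockdown arrays, against 10.14, 10.09 and 9.88 in scrambled arrays. The groups did not overlap and differed by 0.24 ± 0.08 log2 units (SE; limma, adjusted p = 0.171), and by 0.16 without scrambled replicate 3. PDK3, an X-linked pyruvate dehydrogenase kinase, differed by 0.04, and by 0.016 without that array. PFKFB4 differed by 0.09 with all arrays and by −0.06 without scrambled replicate 3, so its direction turned on that array.

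Of the genes that sense oxygen, none of 3 passed. HIF1A, the alpha subunit of HIF-1, read 10.50, 10.51 and 10.55 log2 units in knockdown arrays, against 10.53, 10.48 and 10.55 in scrambled arrays, and its difference of 0.0047 had a 95% interval of −0.13 to 0.14. The subunit is controlled mainly through its breakdown, which mRNA levels do not show. EGLN1 (PHD2), the main prolyl hydroxylase, differed by 0.06, and by 0.018 without scrambled replicate 3. EGLN3 (PHD3), itself hypoxia-inducible, differed by 0.13 on a dim probe set at percentile 35.1.

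Of the 8 effector genes of the hypoxia response, 1 rose and 0 fell, where 3.61% of all genes were called. HILPDA, which blocks the lipase ATGL on lipid droplets, read 10.03, 10.13 and 10.20 log2 units in knockdown arrays, against 9.79, 9.78 and 9.69 in scrambled arrays. All knockdown values were above all scrambled values, and the difference was 0.37 ± 0.07 log2 units (SE; 95% interval 0.21 to 0.53; adjusted p = 0.0271). The call was lost without knockdown replicate 1, 2 or 3 or scrambled replicate 2, with adjusted p of 0.0612, 0.119, 0.122 and 0.0882, while the difference stayed between 0.33 and 0.41.

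ANKRD37, a small ankyrin repeat protein and HIF-1 target, lay on the opposite side. It read 8.79, 8.99 and 8.89 log2 units in knockdown arrays, against 9.18, 9.24 and 9.07 in scrambled arrays. All knockdown values were below all scrambled values, and the difference of −0.27 ± 0.08 log2 units (SE) did not pass (limma, adjusted p = 0.0999). BNIP3L, a mitophagy receptor, also lay lower, averaging 11.62 ± 0.01 in knockdown and 11.78 ± 0.11 in scrambled arrays (SD, n = 3 each) without overlap. It differed by −0.16 ± 0.07 log2 units (SE; limma, adjusted p = 0.285). Without scrambled replicate 3 the differences grew to −0.23 for BNIP3L and −0.32 for ANKRD37, neither past the test (limma, adjusted p = 0.0776 and 0.0585). BNIP3, a relative of BNIP3L, differed by 0.04 and by −0.02 without that array.

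The collagen prolyl 4-hydroxylase subunits both averaged higher in knockdown cells without passing. P4HA2 read 8.05, 8.25 and 8.23 log2 units in knockdown arrays, against 8.04, 7.92 and 7.81 in scrambled arrays. The groups nearly touch, and the difference was 0.25 ± 0.08 log2 units (SE; limma, adjusted p = 0.157). P4HA1 differed by 0.26, with 9.75 in scrambled replicate 3 against 10.31 and 10.24 in the other scrambled arrays, and by 0.08 without that array. VEGFA, the angiogenic growth factor, differed by 0.17 and by 0.08 without scrambled replicate 3. ADM, the vasodilator peptide adrenomedullin, differed by 0.11 with overlapping groups.

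Scrambled replicate 3 held the lowest value in 13 of the 35 genes, or 37.1%, and in 6 of the 11 hypoxia response genes, where it was lowest in 24.2% of all genes. The low genes included ALDOC, ENO2, PDK1, PFKFB4, VEGFA, P4HA1 and BNIP3. In the glycolysis group the same array was also the highest in 7 of 24 genes, or 29.2%, LDHB and PKM among them, beside 28.9% of all genes. Without it the median of the hypoxia response genes was 0.08 log2 units, beside 0.11 with all arrays and 0.07 without scrambled replicate 2, and the calls of SLC2A3 (0.56, adjusted p = 0.00960) and HILPDA (0.34, adjusted p = 0.0399) held. What set this array apart was not tested.

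**Figure D3:**
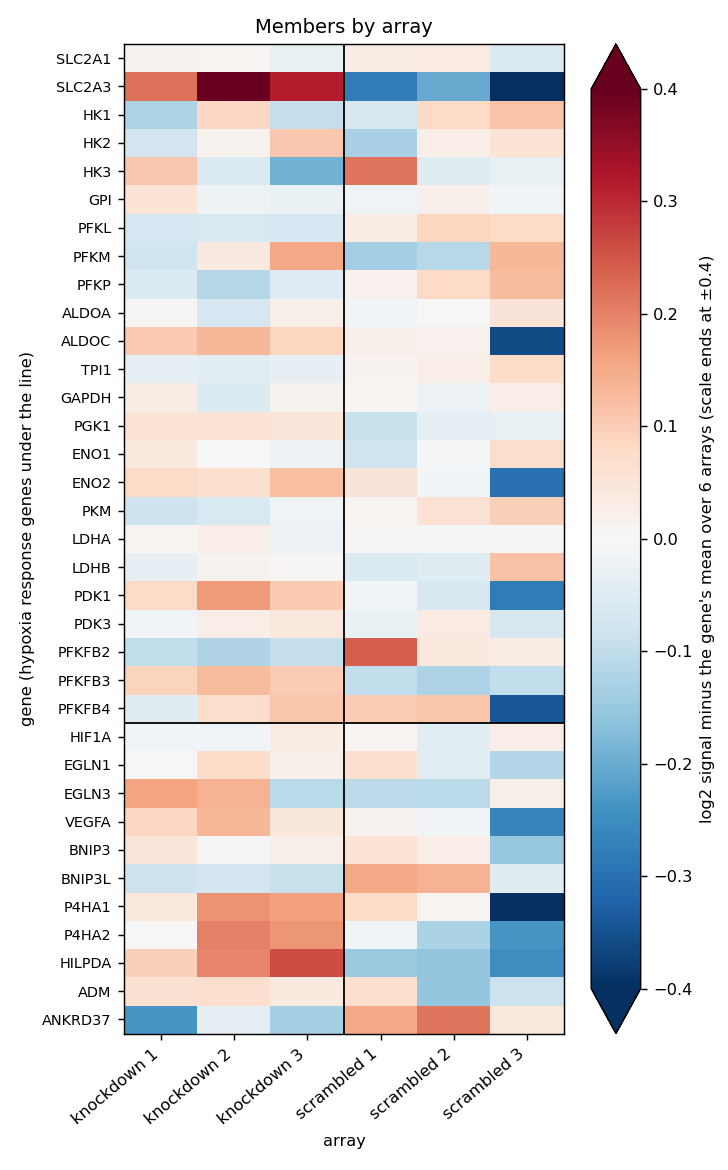
Log2 signal of each of the 35 genes in each array, minus the gene's mean over the 6 arrays; red is above and blue below, with colours ending at 0.4 log2 units either way, which SLC2A3 and P4HA1 exceed. Knockdown arrays stand left of scrambled arrays, and the column of scrambled replicate 3 holds the lowest value of 13 genes.

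**Figure D4:**
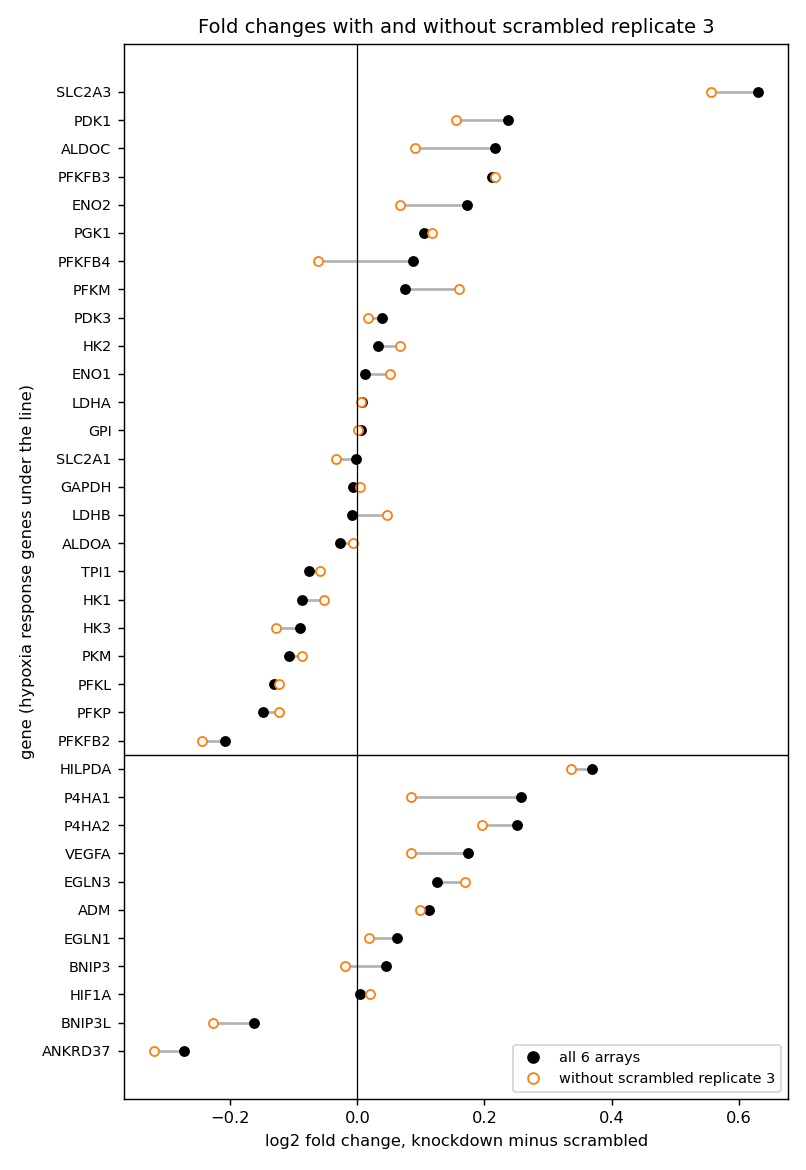
Log2 fold change, knockdown minus scrambled, of each gene with all 6 arrays (black) and without scrambled replicate 3 (orange). HILPDA and PFKFB3 move little, and SLC2A3 goes from 0.63 to 0.56 but stays the largest. ALDOC, ENO2, P4HA1 and VEGFA shrink to under 0.1 and PFKFB4 changes sign.

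Related genes were compared within arrays in 11 pairs, asking whether both changed alike. With 3 against 3 arrays the two-sided exact permutation test cannot go below p = 0.1, so no pair could pass. The smallest value seen after Benjamini-Hochberg adjustment over the 11 pairs was 0.275. In 4 of the 11 pairs the groups did not overlap. Single genes did so in 45.7% of the 35 members and 24.8% of all genes. No such share was computed for pairs of other genes, so this count is only a description. The log2 difference SLC2A3 minus SLC2A1 shifted by 0.63 ± 0.08 (SE), BNIP3 minus BNIP3L by 0.21 ± 0.02, PDK1 minus PDK3 by 0.20 ± 0.07 and ALDOC minus ALDOA by 0.24 ± 0.15, each with an exact p of 0.1. LDHA minus LDHB shifted by 0.02 ± 0.06, P4HA1 minus P4HA2 by 0.0069 ± 0.12, PFKP minus PFKL by −0.02 ± 0.03 and HK2 minus HK1 by 0.12 ± 0.08, all with overlapping groups. ENO2 minus ENO1 shifted by 0.16 ± 0.15, PFKFB3 minus PFKFB4 by 0.13 ± 0.16 and EGLN3 minus EGLN1 by 0.06 ± 0.12, also with overlap. Without scrambled replicate 3 the shift was 0.098 for ALDOC minus ALDOA, 0.14 for PDK1 minus PDK3, 0.016 for ENO2 minus ENO1 and 0.28 for PFKFB3 minus PFKFB4.

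The surroundings of the pathway were read from lists of neighbouring genes, also chosen with earlier results of these data known. Like the 35 genes, these lists were bright, with median percentiles by mean signal from 80.2 to 85.2, against 58.5 for all genes tested. The part of brightness in their shares was not tested. In gluconeogenesis and glycogen metabolism 1 of 13 measured genes rose and 0 fell, where 3.61% of all genes were called. The gene that rose was FBP1, fructose-1,6-bisphosphatase, which runs the phosphofructokinase step in reverse. FBP1 read 8.10, 8.13 and 8.04 log2 units in knockdown arrays, against 7.81, 7.76 and 7.53 in scrambled arrays, without overlap. It rose by 0.39 ± 0.08 log2 units (SE; limma, adjusted p = 0.0426). The call was lost without knockdown replicate 1, 2 or 3 or scrambled replicate 2, with adjusted p between 0.106 and 0.168.

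The list for pyruvate oxidation holds the pyruvate dehydrogenase complex, its activating phosphatases and their regulator, the inhibiting kinases PDK2 and PDK4, and enzymes and carriers around it. It lay mostly below 0 without a call: 0 of 13 measured genes passed in limma and 12 were below 0, where 9330 of all 18404 genes were. An unadjusted p under 0.05 was found for 7, or 53.8%, all lower, against 18.2% of all genes (9.45% lower). PDK2, named here after its values were seen because it acts against the complex, was among the 7, at −0.18 log2 units (limma, adjusted p = 0.171). MPC1, a subunit of the mitochondrial pyruvate carrier, read 8.60, 8.81 and 8.75 log2 units in knockdown arrays, against 9.04, 9.04 and 9.37 in scrambled arrays. The groups were apart by −0.43 ± 0.10 log2 units (SE; limma, adjusted p = 0.0599). The median of this list was −0.18 and −0.12 without scrambled replicate 3, where 11 of 13 were below 0 and 6 had an unadjusted p under 0.05. That count was 4 without knockdown replicate 1 or 3 and 8 without scrambled replicate 1.

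The pentose phosphate pathway, which makes NADPH and ribose from glucose 6-phosphate, had 0 of 9 measured genes past the test in limma. At an unadjusted p under 0.05 there were 3, or 33.3%, against 18.2% of all genes. All 9 lay below 0, with a median of −0.20 log2 units, where 9330 of all 18404 genes lay below 0. PGD, 6-phosphogluconate dehydrogenase, differed by −0.35 ± 0.10 (SE; limma, adjusted p = 0.0966), with 11.06 in scrambled replicate 3 against 10.68 and 10.77 in the other scrambled arrays. Without that array the median of the list was −0.09, 8 of 9 lay below 0 and 1 had an unadjusted p under 0.05. That count was also 1 without knockdown replicate 1, 2 or 3, and 5 without scrambled replicate 1.

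Among other HIF targets 1 of 28 measured genes rose and 0 fell, where 3.61% of all genes were called. At an unadjusted p under 0.05 (limma), 8 lay higher and 2 lower, or 35.7%, against 18.2% of all genes (8.7% higher and 9.45% lower). The list had a median of 0.09 log2 units, with 19 of 28 above 0, against 49.3% of all genes. The median was 0.04 without scrambled replicate 3 and 0.15 without scrambled replicate 1. Without knockdown replicate 2, 6 genes (21.4%) had an unadjusted p under 0.05, against 13.8% of all genes. BHLHE40, a transcriptional repressor induced by hypoxia and many other signals, read 10.67, 10.74 and 10.75 log2 units in knockdown arrays, against 10.37, 10.24 and 10.16 in scrambled arrays. The difference was 0.46 ± 0.07 log2 units (SE; limma, adjusted p = 0.0136), and the call was lost without knockdown replicate 1, 2 or 3 or scrambled replicate 2 (adjusted p 0.0517 to 0.0772). TXNIP, a brake on glucose uptake that rises with glucose, was singled out after its values were seen. It read 11.73, 11.66 and 11.60 in knockdown arrays, against 11.44, 10.95 and 10.38 in scrambled arrays. The groups did not overlap, but the scrambled arrays spread widely and the difference of 0.74 ± 0.22 (SE) did not pass (limma, adjusted p = 0.112). It passed without scrambled replicate 1 (0.99, adjusted p = 0.0167) and was 0.46 without scrambled replicate 3 (adjusted p = 0.101). Of the HIF subunits and regulators 0 of 13 measured genes passed in limma, where 3.61% of all genes were called, and their median was −0.0049. At an unadjusted p under 0.05 there were 3, or 23.1%, against 18.2% of all genes. With single arrays left out there were 1 to 5 (7.69% to 38.5%), against 13.8% to 21.6% of all genes. The largest difference there was in CUL2, the scaffold of the VHL ubiquitin ligase, at −0.26 ± 0.10 (SE; limma, adjusted p = 0.206).

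HIF-1 binds a short DNA element, searched here only in the form ACGTG, so other forms were not counted. Promoters of 3 members with contrasting signs are shown: ANKRD37, lower in knockdown arrays, and PFKFB3 and PDK1, higher, none of them past the test. Each window is RefSeq sequence of build GRCh38.p14 on the plus strand, from 250 bases before to 50 bases after a transcription start, and capitals mark ACGTG or its reverse complement CACGT, which overlap where CACGTG is written.
ANKRD37, chr4:185396591-185396890: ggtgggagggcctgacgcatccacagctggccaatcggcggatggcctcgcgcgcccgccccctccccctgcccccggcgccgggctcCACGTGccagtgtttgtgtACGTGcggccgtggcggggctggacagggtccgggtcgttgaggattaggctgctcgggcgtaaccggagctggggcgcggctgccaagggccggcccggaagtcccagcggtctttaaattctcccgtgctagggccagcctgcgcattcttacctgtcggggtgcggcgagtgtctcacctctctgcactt
PFKFB3, chr10:6202682-6202981: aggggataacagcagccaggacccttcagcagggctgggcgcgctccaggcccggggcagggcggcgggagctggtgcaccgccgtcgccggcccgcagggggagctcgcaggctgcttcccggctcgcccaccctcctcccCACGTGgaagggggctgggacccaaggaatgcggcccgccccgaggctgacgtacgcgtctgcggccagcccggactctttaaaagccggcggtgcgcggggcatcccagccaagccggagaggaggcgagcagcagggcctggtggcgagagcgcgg
PDK1, chr2:172555840-172556139: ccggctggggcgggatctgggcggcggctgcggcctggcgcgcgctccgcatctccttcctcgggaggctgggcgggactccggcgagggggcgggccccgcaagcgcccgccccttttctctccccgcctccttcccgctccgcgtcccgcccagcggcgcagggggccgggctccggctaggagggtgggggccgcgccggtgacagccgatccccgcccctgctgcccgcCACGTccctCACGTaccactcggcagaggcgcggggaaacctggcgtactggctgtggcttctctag

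The ANKRD37 window holds the overlapping pair at −162 and a further ACGTG at −143, counted to the first base from the start site. The shown PFKFB3 window, 1 of 2 for that gene, holds the pair at −108. The PDK1 window, also 1 of 2, holds CACGT at −17 and −8. Of 59 RefSeq windows for 32 of the 38 genes, 39.0% held ACGTG on either strand, against 21.4% of all 35116 windows of this length. Some genes have several overlapping windows, so these are not independent, and a match does not show binding. The ACGTG form stood in promoters of genes on both sides of 0 and of genes with differences near 0, such as LDHA and GAPDH. Promoters of SLC2A3 and HILPDA were not analysed here.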

How the data were processed

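Biotin-labelled total RNA of each sample was measured on 1 Affymetrix array, per the labels' protocols. The deposited values, 1 per probe set and array, are on a log2 scale and were made by the authors with RMA, per the submitters' processing notes. RMA subtracts background, equalises the arrays' distributions and combines probes, so it shrinks differences of dim probe sets and hides a change shared by most genes. For RMA no version, and for the annotation no genome build, is given in the sources used here. The 6 columns were used as deposited, without a filter, on 32321 probe sets.

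Probe sets with 1 gene symbol in the platform annotation (19158) gave 18404 genes. Knockdown was tested against scrambled in R 4.3.3 by limma 3.58.1 (lmFit and eBayes, two-sided, without covariates), with p-values adjusted by Benjamini-Hochberg over all genes at 0.05, and the test was checked on simulated data. The number of arrays limits the precision. No pairing by replicate number was seen: correlations of same-numbered deviations were −0.05, −0.07 and −0.03, against −0.04 to 0.10 for unlike numbers. With 3 arrays in each group this check cannot exclude pairing. The members and lists were chosen with earlier results of these data known. Values in every array are given for members that passed or were among the 8 smallest unadjusted p, and for some others as illustration. Genes of the neighbouring lists are named where they passed, or otherwise by the largest difference. Promoter windows come from RefSeq (GRCh38.p14). Alternatives covered normalisation, scaling, brightness, the eBayes prior, array weights, probe set choice, a replicate block, each array left out and the threshold.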

Additional observations from a re-analysis of the deposited data

How the results depend on the processing

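Of the 35 genes, 2 higher and 0 lower became 6 higher and 4 lower with array weights, 1 higher with all deposited probe sets, and 1 higher with the replicate block, which lost HILPDA (adjusted p = 0.0759). With single arrays left out, 0 to 2 were higher, and at an adjusted p under 0.1, 3 were higher and 1 lower. With brighter genes only, 3 were higher, where 796 of 9202 genes, or 8.65%, were called. Over all genes, 665 calls (3.61%) became 3511 (19.1%) with array weights, 165 (0.51%) with all deposited probe sets and 367 (1.99%) with the replicate block. They became 1207 (6.56%) at an adjusted p under 0.1 and 152 to 759 with arrays left out, where fewer samples remain. The array weights were 6.12 for scrambled replicate 2, against 0.55 and 0.25 for scrambled replicates 1 and 3 and 0.73 to 1.42 for knockdown arrays. No pairing by replicate number was seen or stated, so the block is only a check. Of 17 alternatives SLC2A3 passed in 16 and HILPDA in 11, both higher in all. PFKFB3 and ANKRD37 passed with array weights (adjusted p = 0.00659 and 0.00456, limma), and PFKFB3 also with brighter genes only (adjusted p = 0.0440). The median of the glycolysis genes was −0.0063 after quantile normalisation, −0.017 with centred arrays and from −0.0032 to 0.016 with arrays left out, where that of the hypoxia response genes ran from 0.07 to 0.12.

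Genes with differences near 0 changed sign without passing, and the cause was not tested. After quantile normalisation the log2 differences were SLC2A1 0.021, GPI −0.012, ENO1 −0.017 and LDHA −0.013. With centred arrays they were GPI −0.018, ENO1 −0.011, LDHA −0.016 and HIF1A −0.019, and with array weights GPI −0.021, GAPDH 0.0061, LDHB 0.044, PDK3 −0.0011, PFKFB4 −0.035 and BNIP3 −0.0063. With arrays left out, the ranges ran for SLC2A1 from −0.033 to 0.013, HK2 from −0.024 to 0.077, GPI from −0.021 to 0.019, GAPDH from −0.024 to 0.019, ENO1 from −0.025 to 0.051, LDHA from −0.0041 to 0.021, LDHB from −0.038 to 0.047, PFKFB4 from −0.062 to 0.16, HIF1A from −0.016 to 0.020 and BNIP3 from −0.019 to 0.084. The shifts of pairs ranged for PFKP minus PFKL from −0.029 to 0.0066, LDHA minus LDHB from −0.041 to 0.049, P4HA1 minus P4HA2 from −0.11 to 0.078 and EGLN3 minus EGLN1 from −0.0066 to 0.15. TPI1 was 0.29 from its dimmer probe set. Dim probe sets limit HK3, EGLN3 and UGT2B17.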
